A study of Mus musculus with 20 samples.

Results

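Mitochondria are remodelled by fusion, by fission and by the folding of their inner membrane into cristae, and 10 genes of this machinery were examined in the soleus muscle of mice under a model of space flight. The genes were taken by symbol: the mitofusins Mfn1 and Mfn2 and the inner membrane fusion protein Opa1, the fission genes Dnm1l, Fis1, Mff and Mief1, the Opa1 proteases Oma1 and Yme1l1, and the cristae organiser Immt. All 10 were found among 56941 gene rows of the deposited count table, and all 10 passed the filter on low counts. The exposed group, called space in the labels, comprised 10 C57BL/6J mice whose hind limbs were unloaded for 14 days and which also received ionizing radiation and a stress hormone, given through the diet according to the series text. The control group comprised 10 C57BL/6J mice given sham irradiation, with no unloading time listed. The agent and dose of the stress hormone are not given, nor whether controls received a vehicle. The 3 exposures were applied together, so their effects cannot be told apart, and the labels give neither the age nor the sex of the animals. Each library came from the whole soleus of 1 hind limb, from 90 ng of total RNA depleted of ribosomal RNA. Nothing beyond the group size of 10 mice describes the origin of the replicates, so a p-value covers only the spread among these samples, which may be technical.

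In background, the outer membranes of neighbouring mitochondria are joined by Mfn1 and Mfn2 and the inner membranes by Opa1, while division is carried out by the GTPase Drp1, encoded by Dnm1l, which is drawn from the cytosol to the outer membrane by receptors such as Mff and the proteins of Mief1 and Mief2. Opa1 is cut by the proteases Oma1 and Yme1l1, and Immt encodes mitofilin, the core of the MICOS complex that holds cristae junctions. Soleus is a postural muscle rich in slow and oxidative fibres, which are dense in mitochondria.

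Library totals lay between 24062159 and 39620873 counts in exposed libraries and between 17336017 and 43424464 counts in controls. Counts of the 10 genes in a library ranged from 346 to 30202. At the lowest of these, 346 counts of Oma1, counting error alone is 5.38%, against a coefficient of variation of 8.35% among exposed and 7.10% among control libraries for that gene. Fibre markers of soleus were present in both groups. Slow fibre markers summed to 8348 to 18090 CPM (counts normalised to TMM-scaled library size) in exposed libraries and 23240 to 31940 CPM in controls, and fast fibre markers to 48880 to 63570 CPM in exposed libraries and 22550 to 29060 CPM in controls. Over all 16778 tested genes, 28.9% were called lower and 28.7% higher. All 8 slow fibre markers were called lower, and of 8 fast fibre markers 7 were called higher and 1 lower. The fast fibre marker called lower was Myh2, at 161.7 to 1035 CPM in exposed and 8650 to 11370 CPM in control libraries. Of 6 fibroblast markers 4 were called lower and 2 higher, of 6 endothelial markers 1 was called lower, and of 6 macrophage markers 2 were called higher. The part of these shifts in the results on the members was not tested. Exposed replicates 1 to 4 stood apart. Their 10 Schwann cell and nerve markers summed to 526.9 to 1531 CPM, against 95.9 to 186.7 CPM in exposed replicates 5 to 10 and 96.3 to 197.1 CPM in controls. None of the 10 nerve markers was at 0 in all libraries, and all 10 were called higher in the exposed group. The summed adipocyte markers also reached 70.5 to 169.2 CPM in these 4 libraries, against 9.72 to 68.1 CPM in exposed replicates 5 to 10 and 11.0 to 87.2 CPM in controls, although none of the 4 markers was called between the groups. TMM scaling factors were 1.05 to 1.16 in these 4 libraries, 0.946 to 1.01 in exposed replicates 5 to 10 and 0.931 to 1.04 in controls. Fold changes without exposed replicates 1 to 4 are given beside those of all libraries. In bulk muscle RNA, fewer cells of a type and less RNA per cell cannot be told apart.

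Promoter sequences are shown for 4 members: the mitofusins, whose levels moved in opposite directions, and Opa1 and Immt, picked among the members that fell because they hold a match to the site of the transcription factor NRF1. Each runs 5′ to 3′ from 250 bases before to 50 bases after the RefSeq transcription start (build GRCm38.p6, not the build named by the submitters). Capitals mark matches on either strand to the NRF1 site (GCGCA, then any base, then GCGC), the ETS site (CCGGAAG) or the YY1 site (GCCATNTT). Mfn1 lies at chr3:32529232-32529531 on the plus strand, Mfn2 at chr4:147904649-147904948 on the minus strand, Opa1 at chr16:29579084-29579383 on the plus strand and Immt at chr6:71831070-71831369 on the plus strand.
Mfn1: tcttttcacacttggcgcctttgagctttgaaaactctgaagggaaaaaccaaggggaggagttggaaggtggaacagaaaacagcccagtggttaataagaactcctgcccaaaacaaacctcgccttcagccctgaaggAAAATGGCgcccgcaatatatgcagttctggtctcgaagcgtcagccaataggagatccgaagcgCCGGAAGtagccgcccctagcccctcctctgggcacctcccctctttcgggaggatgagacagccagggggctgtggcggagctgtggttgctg
Mfn2: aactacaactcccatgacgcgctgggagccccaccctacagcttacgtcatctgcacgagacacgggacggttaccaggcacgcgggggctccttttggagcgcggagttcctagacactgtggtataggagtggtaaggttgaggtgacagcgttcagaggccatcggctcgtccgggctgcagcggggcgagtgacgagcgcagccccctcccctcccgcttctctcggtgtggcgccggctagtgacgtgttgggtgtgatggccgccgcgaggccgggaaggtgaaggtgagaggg
Opa1: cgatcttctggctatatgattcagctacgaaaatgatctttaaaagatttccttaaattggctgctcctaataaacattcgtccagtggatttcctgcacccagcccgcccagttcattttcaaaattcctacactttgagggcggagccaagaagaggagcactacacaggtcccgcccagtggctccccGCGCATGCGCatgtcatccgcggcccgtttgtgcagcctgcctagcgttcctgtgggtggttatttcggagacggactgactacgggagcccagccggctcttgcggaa
Immt: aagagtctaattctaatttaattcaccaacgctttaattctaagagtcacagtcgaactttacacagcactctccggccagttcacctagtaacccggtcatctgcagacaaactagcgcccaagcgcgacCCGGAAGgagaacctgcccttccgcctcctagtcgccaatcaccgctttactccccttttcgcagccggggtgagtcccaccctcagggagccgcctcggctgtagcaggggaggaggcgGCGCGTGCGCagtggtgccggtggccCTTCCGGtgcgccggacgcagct

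The Opa1 window held the palindromic NRF1 site GCGCATGCGC at bases -59 to -50 before the start, and the Immt window held GCGCGTGCGC at bases 2 to 11. Oma1 held the third NRF1 match among the members, at bases -23 to -14. NRF1 matches were thus found in 3 of 10 member promoters, against 4.6% of all 32851 promoter windows in the table. Those windows belong to 27025 genes, so some genes count more than once, whereas 1 window was read per member. ETS sites were found in 5 of 10 member promoters and in 8.86% of all windows, and YY1 sites in 3 of 10 and in 6.05%. The ERR element (TNAAGGTCA) and the cyclic AMP response element (TGACGTCA) were found in no member window, and in 1.28% and 1.79% of all windows. No matches overlapped each other, and the windows of Mfn2 and Dnm1l held none of these letters. Dnm1l had the largest fall of the members, and Mfn1, which also fell, held no NRF1 match. Whether NRF1 had a part in any fall was not tested. The 4 printed windows had a GC content of 55.3% for Mfn1, 64.7% for Mfn2, 53.3% for Opa1 and 59.3% for Immt. The median over all windows was 52.7%. Among the 10 members GC content ran from 49.0% for Mff to 68.7% for Mief1. Match rates were not compared among windows of like GC content. Some members have more than 1 listed start, 3 in the case of Mfn2, and the one nearest to the GENCODE M21 gene start was used.

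The first question was whether exposure moved the genes of mitochondrial dynamics as a group or member by member. Most members were lower in the exposed muscles, and Mfn2 was higher. In edgeR's quasi-likelihood test with Benjamini-Hochberg adjustment over 16778 tested genes, 8 members fell, 1 rose and 1 did not pass the threshold of 0.05. Over all tested genes 57.6% were called, 28.7% higher and 28.9% lower, or 4813 and 4850 genes, while with library size as the only scaling 5946 genes were higher and 3756 lower. The median log2 fold change of the members was -0.19, against 0.023 over all tested genes. In 4 members, Mfn1, Opa1, Dnm1l and Immt, the ranges of the 10 exposed and the 10 control libraries did not overlap, which was the case in 17.4% of all tested genes. Without exposed replicates 1 to 4, 5 members fell and 2 rose, with a median log2 fold change of -0.13. Of all 17122 genes tested in that setting, 4466 were lower and 4310 higher.

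**Figure D1:**
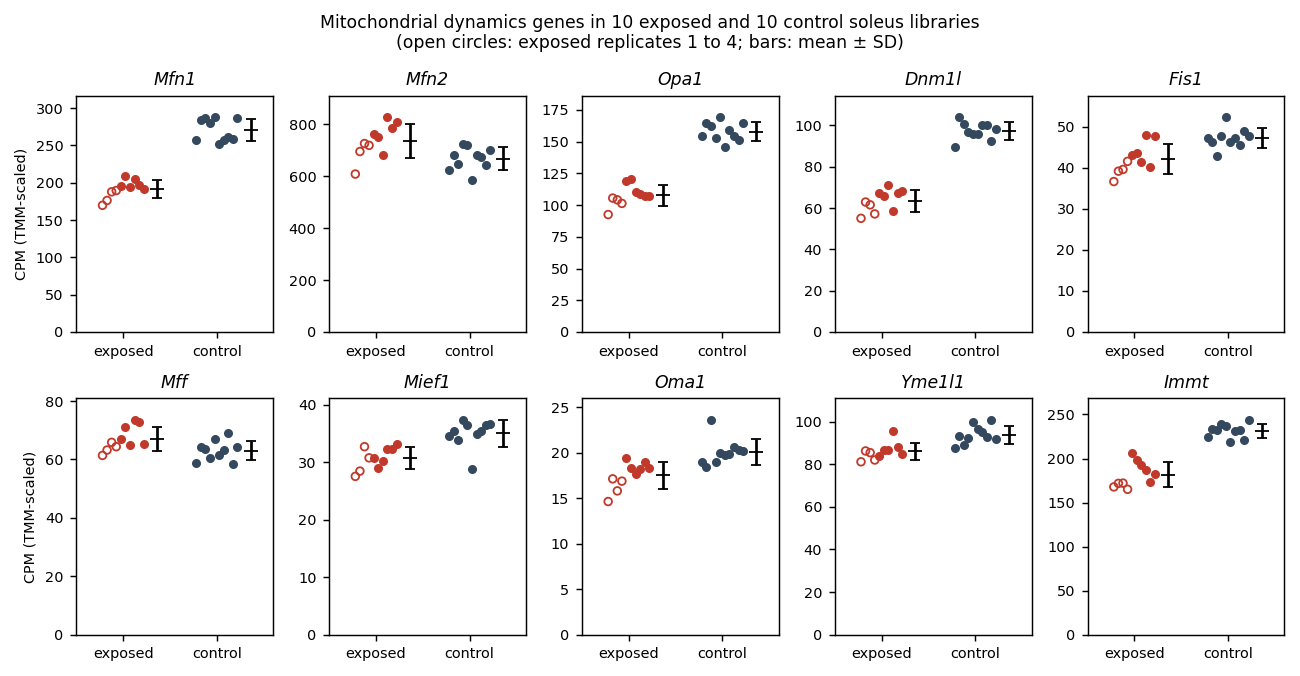
Level of each of the 10 genes in CPM (TMM-scaled, linear axis from 0) in every exposed library (red, left) and control library (dark, right); open circles are exposed replicates 1 to 4 and bars give the mean ± SD (n = 10 each). Mfn1, Opa1, Dnm1l and Immt separate the groups, and Mfn2 and Mff lie slightly higher in exposed libraries.

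The mitofusins moved in opposite directions. Mfn1, which tethers outer membranes for fusion, ranged from 169.7 to 209.5 CPM in exposed libraries with a median of 192.9 CPM, and from 252.3 to 287.9 CPM in controls with a median of 270.7 CPM. Every exposed library lay below every control library. Its mean was 191.6 ± 11.9 CPM in exposed and 271.1 ± 14.9 CPM in control libraries (SD, n = 10 each), a log2 fold change of -0.50 ± 0.038 (SE), or 1.42-fold lower (edgeR adjusted p = 3.12e-10). Mfn2, a mitofusin that also links mitochondria to the endoplasmic reticulum, ranged from 607.9 to 827.1 CPM in exposed libraries with a median of 737.4 CPM, and from 583.3 to 722.6 CPM in controls with a median of 677.1 CPM. The ranges overlapped, and 9 of 10 exposed libraries lay above the control mean. Mfn2 averaged 735.9 ± 65.6 CPM in exposed and 667.5 ± 43.6 CPM in control libraries, or 1.102-fold higher, with a log2 fold change of 0.14 ± 0.052 (SE) and an edgeR adjusted p of 0.0264. This small rise did not pass the threshold without exposed replicate 8 (adjusted p = 0.0539), exposed replicate 10 (0.0518), control replicate 1 (0.0503) or control replicate 6 (0.0538). It did not pass against a fold of 1.2 either. The call held in 26 of 31 alternative settings. With library size alone the log2 fold change was 0.22 (edgeR adjusted p = 6.15e-05), and with upper-quartile factors 0.20 (edgeR adjusted p = 0.00141). Without exposed replicates 1 to 4 the log2 fold change of Mfn2 was 0.21 (edgeR adjusted p = 0.00133) and that of Mfn1 was -0.44 (edgeR adjusted p = 1.17e-08). On library totals without TMM factors, Mfn2 stood at 704.2 to 792.2 CPM in exposed replicates 1 to 4. It then stood at 641.8 to 817.9 CPM in exposed replicates 5 to 10 and 606.8 to 694.5 CPM in controls.

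The balance between the mitofusins was compared within libraries, where scaling between libraries has no part. The log2 difference Mfn1 minus Mfn2 averaged -1.94 ± 0.086 in exposed and -1.30 ± 0.073 in control libraries (SD, n = 10 each), and ranged from -2.07 to -1.81 in exposed libraries and from -1.41 to -1.18 in controls. The groups did not overlap, and the difference between them was -0.64 ± 0.036 (SE), a 1.56-fold lower ratio of Mfn1 to Mfn2 in exposed muscles (2-sided permutation test with 100000 resamples, p = 6e-05, adjusted over 3 pairs p = 0.00018). It was -0.65 without exposed replicates 1 to 4 (exact permutation test, adjusted p = 0.000749). Per length of annotated exons, Mfn2 made up 80.5% to 83.2% of the mitofusin signal in exposed libraries and 72.7% to 75.8% in controls.

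**Figure D2:**
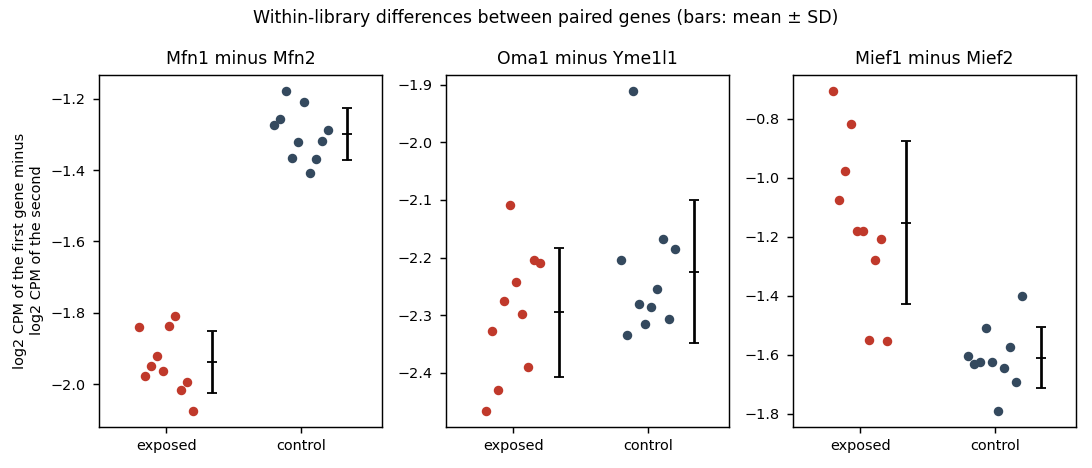
Within-library log2 CPM differences (y axis, log2 units) for 3 pairs of like function, exposed libraries left and controls right, with bars for the mean ± SD (n = 10 each). Mfn1 minus Mfn2 separates the groups, Oma1 minus Yme1l1 overlaps widely, and Mief1 minus Mief2 is higher in exposed libraries with overlapping ranges.

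Opa1, the dynamin-like GTPase of the inner membrane, fell as well. It ranged from 92.5 to 120.8 CPM in exposed libraries with a median of 107.2 CPM, and from 146.0 to 169.3 CPM in controls with a median of 157.1 CPM. The groups were separate. The means were 107.7 ± 8.14 CPM in exposed and 157.9 ± 7.22 CPM in control libraries (SD, n = 10 each), a log2 fold change of -0.55 ± 0.041 (SE), or 1.47-fold lower (edgeR adjusted p = 8.06e-11). The log2 fold change was -0.48 without exposed replicates 1 to 4 (edgeR adjusted p = 2.44e-09). TMM-scaled levels of Opa1 were 92.5 to 105.5 CPM in those 4 libraries and 107.1 to 120.8 CPM in exposed replicates 5 to 10. On library totals without TMM factors they overlapped, at 107.2 to 111.7 CPM in exposed replicates 1 to 4 and 104.4 to 122.0 CPM in exposed replicates 5 to 10, against 146.8 to 161.7 CPM in controls.

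Of the fission genes, Dnm1l, Fis1 and Mief1 fell and Mff did not pass the test. Dnm1l, which encodes the division GTPase Drp1, had the largest fall of the 10 members. It ranged from 55.0 to 71.1 CPM in exposed libraries with a median of 64.3 CPM, and from 89.4 to 104.0 CPM in controls with a median of 97.6 CPM. No exposed library reached the lowest control. The means were 63.4 ± 5.29 CPM in exposed and 97.4 ± 4.30 CPM in control libraries (SD, n = 10 each), a log2 fold change of -0.62 ± 0.044 (SE), or 1.54-fold lower (edgeR adjusted p = 2.35e-11). It was -0.55 without exposed replicates 1 to 4 (edgeR adjusted p = 8.63e-10).

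Mff encodes an outer membrane receptor that recruits Drp1. It ranged from 61.4 to 73.5 CPM in exposed libraries with a median of 65.6 CPM, and from 58.5 to 69.1 CPM in controls with a median of 63.4 CPM. The ranges overlapped for the most part, although 9 of 10 exposed libraries lay above the control mean. The means were 67.0 ± 4.16 CPM in exposed and 63.0 ± 3.37 CPM in control libraries, with a log2 fold change of 0.087 ± 0.037 (SE) that missed the threshold (edgeR adjusted p = 0.0621). It passed without exposed replicates 1 to 4, at 0.14 (edgeR adjusted p = 0.00799). It also passed without exposed replicate 1 (adjusted p = 0.0329), exposed replicate 2 (0.0471), control replicate 5 (0.0474) or control replicate 8 (0.0298).

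Fis1, a small outer membrane protein linked to fission, fell slightly. It stood between 36.7 and 48.0 CPM in exposed libraries with a median of 41.5 CPM, and between 42.97 and 52.4 CPM in controls with a median of 47.3 CPM. The ranges overlapped and 8 of 10 exposed libraries lay below the control mean. The means were 42.1 ± 3.65 CPM in exposed and 47.3 ± 2.41 CPM in control libraries, a 1.12-fold fall (log2 fold change -0.17 ± 0.045 SE, edgeR adjusted p = 0.00329). Without exposed replicates 1 to 4, at 36.7 to 41.6 CPM, the log2 fold change was -0.094 and missed the threshold (edgeR adjusted p = 0.0944). On library totals without TMM factors, Fis1 stood at 41.3 to 45.9 CPM in those 4 libraries. It then stood at 39.2 to 47.5 CPM in exposed replicates 5 to 10 and 42.3 to 50.1 CPM in controls.

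The MiD proteins, encoded by Mief1 and Mief2, are outer membrane receptors of Drp1. Mief1 ranged from 27.5 to 33.2 CPM in exposed libraries with a median of 30.7 CPM, and from 28.8 to 37.3 CPM in controls with a median of 35.4 CPM. All 10 exposed libraries lay below the control mean, and the low end of the controls was control replicate 6 alone. Mief1 averaged 30.7 ± 1.93 CPM in exposed and 35.0 ± 2.42 CPM in control libraries, a 1.14-fold fall (log2 fold change -0.19 ± 0.044 SE, edgeR adjusted p = 0.000987). That log2 fold change was -0.15 without exposed replicates 1 to 4 (edgeR adjusted p = 0.014). Mief2 averaged 69.8 ± 15.7 CPM in exposed and 106.8 ± 6.01 CPM in control libraries, a 1.53-fold fall (log2 fold change -0.61 ± 0.107 SE, edgeR adjusted p = 2.47e-05). For Mief2 it was -0.42 without exposed replicates 1 to 4 (edgeR adjusted p = 2.57e-05). Its coefficient of variation was 22.5% among exposed and 5.63% among control libraries, with 44.9 to 64.5 CPM in exposed replicates 1 to 4 and 65.7 to 97.5 CPM in exposed replicates 5 to 10. On library totals without TMM factors these ranges of Mief2 were 52.0 to 68.9 CPM and 66.4 to 95.9 CPM. The log2 difference Mief1 minus Mief2 was -1.15 ± 0.276 in exposed and -1.61 ± 0.103 in control libraries (SD), a difference of 0.46 ± 0.093 (SE, permutation test adjusted p = 0.00036). In all 10 exposed libraries that difference exceeded the control mean, although the ranges overlapped. Without exposed replicates 1 to 4, the difference was 0.29 (exact permutation test, adjusted p = 0.00524), so those 4 libraries moved it by over 1.5 times.

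The Opa1 proteases fell by small amounts. Oma1, which cuts Opa1 under stress, ranged from 14.6 to 19.4 CPM in exposed libraries with a median of 17.9 CPM, and from 18.4 to 23.6 CPM in controls with a median of 19.9 CPM. All 10 exposed libraries lay below the control mean, with overlapping ranges. The means were 17.5 ± 1.46 CPM in exposed and 20.1 ± 1.42 CPM in control libraries, a 1.146-fold fall (log2 fold change -0.20 ± 0.050 SE, edgeR adjusted p = 0.00213). Yme1l1, the protease of the inner membrane that cuts Opa1 at a second site, ranged from 81.1 to 95.7 CPM in exposed libraries with a median of 85.8 CPM, and from 87.6 to 100.8 CPM in controls with a median of 92.9 CPM. Of the exposed libraries, 9 of 10 lay below the control mean. The means were 86.1 ± 4.02 CPM in exposed and 93.8 ± 4.25 CPM in control libraries, a 1.09-fold fall (log2 fold change -0.13 ± 0.029 SE, edgeR adjusted p = 0.00316). Neither fall passed the test without exposed replicates 1 to 4, where Oma1 had a log2 fold change of -0.11 (edgeR adjusted p = 0.0649) and Yme1l1 one of -0.091 (edgeR adjusted p = 0.0549). The fall of Yme1l1 was also lost with upper-quartile scaling (adjusted p = 0.0889) or library size alone (adjusted p = 0.298). On library totals without TMM factors, Oma1 stood at 16.9 to 18.6 CPM in exposed replicates 1 to 4 and 16.6 to 19.3 CPM in exposed replicates 5 to 10. For Yme1l1 these ranges were 90.4 to 94.0 CPM and 82.1 to 94.6 CPM. Controls then stood at 17.8 to 23.2 CPM for Oma1 and 86.0 to 100.2 CPM for Yme1l1. The log2 difference Oma1 minus Yme1l1 was -2.30 ± 0.111 in exposed and -2.22 ± 0.124 in control libraries (SD), and the difference of -0.071 ± 0.053 (SE) did not pass the test (permutation test adjusted p = 0.204). It was -0.018 without exposed replicates 1 to 4 (exact permutation test, adjusted p = 0.843) and -0.036 without control replicate 3 (permutation test, adjusted p = 0.404).

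Immt, the cristae gene of the set, fell clearly. It ranged from 165.1 to 206.7 CPM in exposed libraries with a median of 177.6 CPM, and from 219.1 to 243.9 CPM in controls with a median of 232.3 CPM. The groups were separate. The means were 181.7 ± 14.0 CPM in exposed and 231.4 ± 7.87 CPM in control libraries (SD, n = 10 each), a log2 fold change of -0.35 ± 0.038 (SE), or 1.27-fold lower (edgeR adjusted p = 1.14e-07). It was -0.28 without exposed replicates 1 to 4 (edgeR adjusted p = 5.29e-06).

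**Figure D3:**
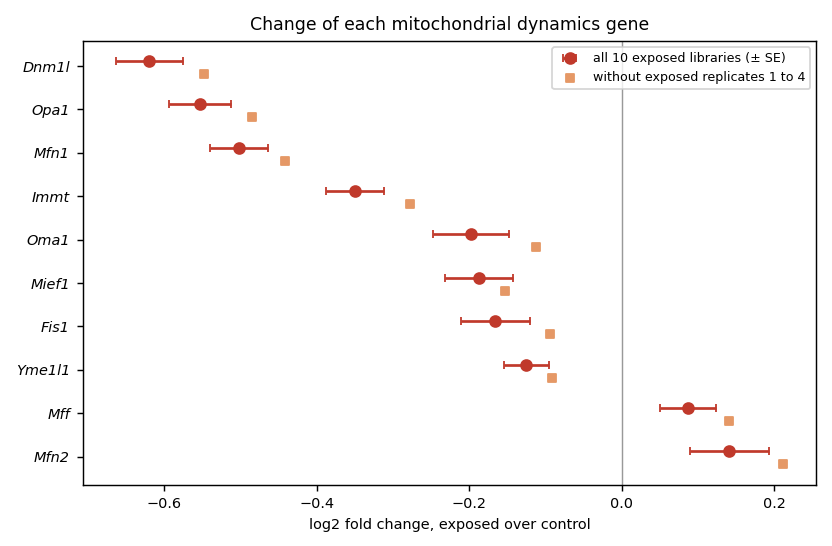
Log2 fold change of each member, exposed over control (x axis); circles with bars are all 10 exposed libraries ± SE, squares leave out exposed replicates 1 to 4. Dnm1l, Opa1, Mfn1 and Immt lie furthest below 0, and Mff and Mfn2 lie above 0.

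Read per kilobase of annotated exons, Mfn2 was the most abundant member in both groups, with 141.7 ± 12.6 CPM per kilobase in exposed and 128.5 ± 8.39 in control libraries (SD). Mfn1 came next, with 31.3 ± 1.94 CPM per kilobase in exposed and 44.4 ± 2.44 in control libraries, then Fis1, with 24.6 ± 2.13 in exposed and 27.6 ± 1.41 in control libraries. Immt, Opa1 and Dnm1l followed at 16.0 ± 1.23, 13.7 ± 1.03 and 12.2 ± 1.02 CPM per kilobase in exposed libraries and at 20.4 ± 0.693, 20.1 ± 0.917 and 18.7 ± 0.826 in controls. In exposed libraries neither Opa1 and Dnm1l nor Dnm1l and Yme1l1 differed beyond their SDs, and in controls neither Immt and Opa1 nor Opa1 and Dnm1l did. Yme1l1 stood at 10.7 ± 0.502 CPM per kilobase in exposed and 11.7 ± 0.531 in control libraries, and Oma1 at 8.17 ± 0.683 in exposed and 9.35 ± 0.665 in control libraries. Mff, at 6.87 ± 0.426 in exposed and 6.46 ± 0.345 in control libraries, and Mief1, at 3.79 ± 0.238 in exposed and 4.31 ± 0.298 in control libraries, were lowest. The order of the 10 members was the same in both groups. Exon lengths join all annotated transcripts, so members with long rare exons are understated on this scale.

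The spread among libraries of 1 group was described next. The coefficient of variation of the members lay between 4.67% for Yme1l1 and 8.91% for Mfn2 in exposed libraries, and between 3.40% for Immt and 7.10% for Oma1 in controls. After subtracting the group means, the closest pair of members over the 20 libraries was Opa1 and Immt (Pearson r = 0.83), followed by Mfn2 and Mief1 (0.79) and Mfn1 and Opa1 (0.78). Dnm1l and Yme1l1 were least alike (0.057). These correlations are descriptive, since the libraries share their scaling and exposed replicates 1 to 4 share a shift. Of 7240 other genes with at least 10 CPM, those most like Immt were the respiratory chain genes Cox6b1 (r = 0.93), Ndufab1 (0.91) and Cox5b (0.91). Those most like Mfn2 were the peptidase gene Nln (0.90), the peroxisomal enzyme gene Gnpat (0.89) and Tsc1 (0.88), a negative regulator of mTORC1. Those most like Mfn1 were Grsf1 (0.87), which encodes a mitochondrial RNA-binding protein, Fam210a (0.85) and Ptges2 (0.84). Likeness within groups did not always go with a like change between them. The genes named for Immt and Mfn1 were all called lower, as those members were. Mfn2 was called higher, but Nln (log2 fold change -0.32) and Gnpat (-0.55) were called lower and Tsc1 (-0.016) was not called.

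**Figure D4:**
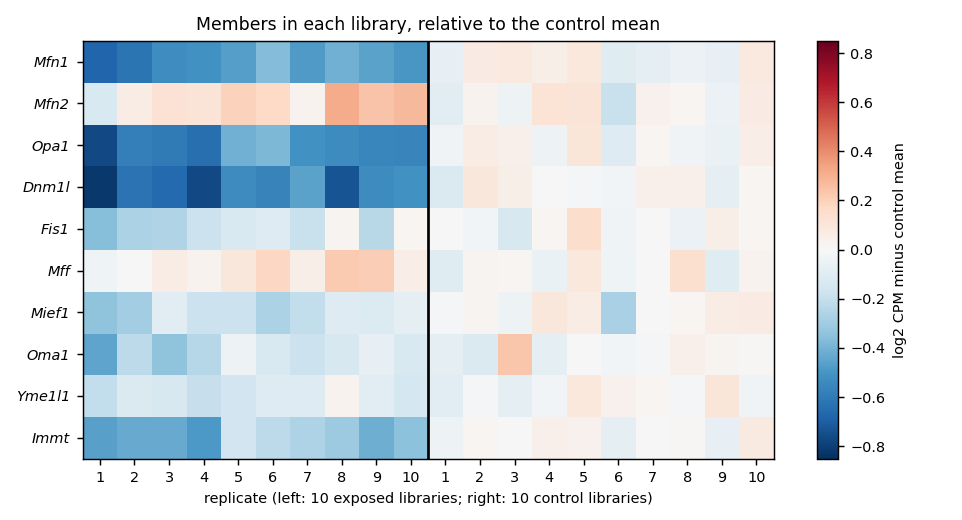
Each member (rows) in each library (columns; exposed left of the line, controls right), coloured by log2 CPM minus the control mean. Exposed values lie between -0.82 and 0.31, with the lowest for Dnm1l in exposed replicate 1, and control values between -0.28 and 0.24.

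A list of 44 further genes of fusion, fission, inner membrane proteolysis and cristae structure was read in the same fit. All 44 were in the table, 42 were tested, 28 fell, 5 rose and 9 did not pass, where 57.6% of all tested genes were called. Their median log2 fold change was -0.35. The counts were also 28 and 5 without exposed replicates 1 to 4, where 4466 of all 17122 tested genes fell and 4310 rose. The genes were not all the same. Apoo, lower in all libraries, no longer passed (edgeR adjusted p = 0.367), and neither did Spire1, described below. Prelid1 was newly called lower (log2 fold change -0.25, edgeR adjusted p = 0.00815) and Spg7 higher (0.16, edgeR adjusted p = 0.00355). The falls with the smallest p values were in Atp5g1, Mtfp1, Minos1, Atp5k and Mtx2. Mtfp1, an inner membrane protein that promotes fission, averaged 15.6 ± 2.41 CPM in exposed and 34.5 ± 3.32 CPM in control libraries, a log2 fold change of -1.15 ± 0.080 (SE). Minos1, a small MICOS subunit also called Micos10, averaged 25.7 ± 2.00 CPM in exposed and 41.2 ± 2.82 CPM in control libraries, a log2 fold change of -0.68 ± 0.048. Atp5g1 and Atp5k, subunits of the ATP synthase whose dimers shape cristae, had log2 fold changes of -1.04 ± 0.066 and -0.88 ± 0.069. Mtx2, an outer membrane protein that works with the sorting and assembly complex, had one of -0.66 ± 0.054. Group ranges did not overlap in 22 of the 42 tested related genes, against 17.4% of all tested genes. The 5 genes named here, picked by p value, were among the 22, with every exposed library below every control library. Without exposed replicates 1 to 4 their log2 fold changes were -1.03 for Mtfp1, -0.60 for Minos1, -0.94 for Atp5g1, -0.74 for Atp5k and -0.61 for Mtx2, and all 5 passed the test.

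The 5 related genes that rose were Gdap1, Inf2, Dnm2, Spire1 and March5. Gdap1, an outer membrane fission gene known for peripheral neuropathy when mutated, averaged 4.06 ± 1.00 CPM in exposed and 1.66 ± 0.478 CPM in control libraries, 2.46-fold more, with a log2 fold change of 1.30 ± 0.167 (SE) and an edgeR adjusted p of 1.92e-07. Its log2 fold change was 1.44 without exposed replicates 1 to 4 (edgeR adjusted p = 5.16e-07), and the part of nerve RNA in the Gdap1 level was not tested. The actin nucleators Inf2 and Spire1, which act where the endoplasmic reticulum meets mitochondria, had log2 fold changes of 0.33 ± 0.085 (edgeR adjusted p = 0.00106) and 0.18 ± 0.066 (edgeR adjusted p = 0.0189). That of Spire1 was 0.073 without exposed replicates 1 to 4, which missed the threshold (edgeR adjusted p = 0.359). Dnm2, a dynamin of membrane scission, was 1.11-fold higher (edgeR adjusted p = 0.0012), and the outer membrane ubiquitin ligase gene March5 was 1.07-fold higher (edgeR adjusted p = 0.0289). Without exposed replicates 1 to 4 the log2 fold changes were 0.32 for Inf2, 0.15 for Dnm2 and 0.12 for March5, and all 3 passed the test.

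**Figure D5:**
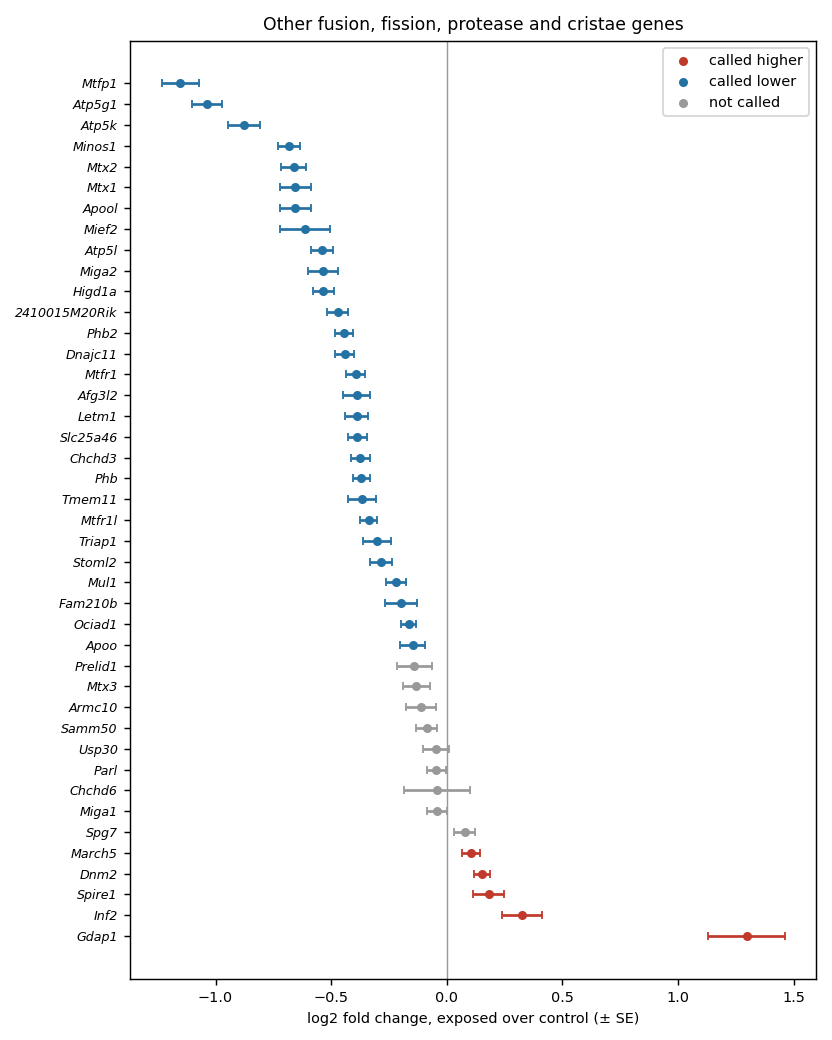
Log2 fold change, exposed over control (x axis, ± SE), of the 42 tested genes related to the members; colours mark genes called higher, called lower and not called. Mtfp1 and Atp5g1 have the most negative values and Gdap1 the highest.

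The members were set beside other mitochondrial genes. For comparison, 28.9% of all 16778 tested genes were called lower and 28.7% higher. Of all 17122 genes tested without exposed replicates 1 to 4, 4466 were lower and 4310 higher. Of 80 tested nuclear genes of oxidative phosphorylation, 76 were called lower and the other 4 did not pass, with a median log2 fold change of -0.55; without exposed replicates 1 to 4, 72 were lower and the median was -0.47. Of 23 tested genes of the protein import machinery, 17 were called lower and 1 higher, with a median of -0.40; without those 4 libraries, 16 were lower, 2 higher and the median -0.33. The outer membrane channel genes were split: Vdac1 rose, at 1404 ± 177 CPM in exposed and 1111 ± 36.3 CPM in control libraries (log2 fold change 0.34, edgeR adjusted p = 4.61e-05), while Vdac2 (-0.16, edgeR adjusted p = 0.00342) and Vdac3 (-0.24, edgeR adjusted p = 0.000516) fell. With exposed replicates 1 to 4 left out, the log2 fold changes were 0.46 for Vdac1 (edgeR adjusted p = 1.42e-08), -0.11 for Vdac3 (0.0128) and -0.070 for Vdac2, which no longer passed (0.12). The 3 ATP synthase genes Atp5g1, Atp5k and Atp5l are in both the related list and the oxidative phosphorylation list. Mitochondrially encoded genes took 4.72% to 7.81% of counts in exposed libraries and 5.88% to 9.57% in controls. The low end of the controls was control replicate 9 alone, and all other controls lay at 8.00% to 9.57%, above every exposed library.

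Regulators of mitochondrial genes also differed between the groups. Ppargc1a, the coactivator PGC-1α that drives mitochondrial biogenesis, ranged from 50.9 to 140.8 CPM in exposed libraries with a median of 69.5 CPM, and from 96.3 to 157.8 CPM in controls with a median of 119.6 CPM. Exposed replicate 10 was the only exposed library above the control mean. The log2 fold change was -0.73 ± 0.147 (SE, edgeR adjusted p = 0.000351). Esrra, the nuclear receptor ERRα that works with PGC-1α, averaged 48.3 ± 4.94 CPM in exposed and 78.4 ± 6.56 CPM in control libraries, a log2 fold change of -0.70 ± 0.059 (edgeR adjusted p = 2.12e-10), with no overlap. Nrf1, a transcription factor of nuclear genes for mitochondrial proteins, averaged 17.8 ± 1.18 CPM in exposed and 15.4 ± 0.682 CPM in control libraries, 1.16-fold more, with a log2 fold change of 0.21 ± 0.036 (SE) and an edgeR adjusted p of 0.00016. With exposed replicates 1 to 4 left out, the log2 fold changes were -0.61 for Ppargc1a (edgeR adjusted p = 0.0124), -0.61 for Esrra (1.69e-08) and 0.25 for Nrf1 (0.000154).

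Some members overlap other annotated genes. In GENCODE M21, Mff contains the intronic gene Gm28941 on its own strand, with 2216 counts over all libraries against 40730 counts of Mff. Genes on the opposite strand of Mfn2, Dnm1l, Mff and Immt held 5 to 93 counts each. The protein-coding gene AC140267.1 overlaps Mief1 on the same strand and held 0 counts. Mief2 holds the microRNA gene Mir5100, with 158 counts against 54697. Whether strand was used in counting is not stated, and reads of these overlaps cannot be told apart from the members. How reads shared between genes were counted is not stated either, so low counts do not show that an overlap had no effect.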

How the data were processed

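RNA of 20 soleus samples, 10 exposed and 10 control, was measured as raw counts for each Ensembl gene, in the table the authors deposited without normalization. Subread, featureCounts 1.5.1, MultiQC 1.15, edgeR and the build GRCm39 are named, per the submitters' processing notes, and neither their roles nor a strand setting is stated. Columns were matched to samples by library code. Names came from GENCODE M21 (GRCm38) for 51948 of 56941 rows, matched on the Ensembl identifier and holding 97.6% of counts, and exon lengths from the same annotation.

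Tests used edgeR 4.0.16 under R 4.3.3, with filterByExpr (minimum count 10, minimum total 15), TMM scaling, robust quasi-likelihood fits and Benjamini-Hochberg adjustment over 16778 genes. CPM uses TMM-scaled library sizes, and log2 CPM a prior count of 2. SEs belong to the difference between mean log2 CPM of the groups. Pairs were compared by 2-sided permutation tests (scipy 1.17.1). The fit was also run on simulated counts in which 200 genes were changed. In the data 9663 of 16778 genes were called, so that run cannot show how the fit behaves here. Promoters are from RefSeq (GRCm38.p6).

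No library columns were identical.

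Members and lists were chosen with earlier results of these data known. The text names all members, Mief2, the 5 related genes called higher and the 5 called lower with the smallest p. It also names related genes whose call changed without exposed replicates 1 to 4, the genes most like 3 members, and Ppargc1a, Esrra and Nrf1. The channel genes Vdac1, Vdac2 and Vdac3 are a background list. Alternatives were DESeq2 1.42.0 size factors and test, upper-quartile factors, library size alone, limma-voom (limma 3.58.1), other filters, leaving out mitochondrially encoded and the 10 most abundant genes, leaving out libraries, the sample number as a block, a threshold of 0.01 and a fold of 1.2. Member levels on library totals alone, and the background lists without exposed replicates 1 to 4, were added after seeing the data.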

Additional observations from a re-analysis of the deposited data

Results flagged for a closer look

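In groups of 10 libraries, a library was marked where its gap to the nearest other library took up an unusually large part of the group's range (Dixon's test). Chance marks about 1 in 20 groups, and 4 of 28 groups were marked. Mief1 stood at 28.8 CPM in control replicate 6, with the next lowest control at 33.8 CPM. Oma1 stood at 23.6 CPM in control replicate 3, with the next highest control at 20.6 CPM. In the same library the log2 difference Oma1 minus Yme1l1 was -1.91, with the next highest control at -2.17. Yme1l1 stood at 95.7 CPM in exposed replicate 8, with the next highest exposed library at 87.9 CPM. The calls of Mief1, Oma1 and Yme1l1 stayed on the same side of the threshold without the library named for each.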

How the results depend on the processing

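The falls of Mfn1, Opa1, Dnm1l and Immt passed the threshold in all 31 alternative settings, with log2 fold changes from -0.52 to -0.42 for Mfn1, -0.57 to -0.47 for Opa1, -0.64 to -0.54 for Dnm1l and -0.37 to -0.27 for Immt. Over 310 values of the 10 members no direction changed, 15 calls were lost and 11 gained. The number of members higher, 1, became 2 with upper-quartile factors, DESeq2 size factors, limma-voom, the CPM filter, library size alone, the DESeq2 test or without exposed replicates 1 to 4, each time by the addition of Mff. It became 0 with an adjusted p under 0.01 or against a fold of 1.2, and ranged from 0 to 2 with 1 library left out. The number lower, 8, became 7 with upper-quartile factors, 6 with library size alone, 5 without exposed replicates 1 to 4 and 4 against a fold of 1.2, and stayed 8 with any 1 library left out. Fis1 was also lost with library size alone (adjusted p = 0.0711). Of all 16778 tested genes, 4850 were lower, against 4095 with upper-quartile factors, 3756 with library size alone and 2484 against a fold of 1.2. The genes higher numbered 4813, 5840, 5946 and 2380 in the same order. Without exposed replicates 1 to 4, 4466 of 17122 tested genes were lower and 4310 higher. Related genes higher became 3 with an adjusted p under 0.01 and 1 against a fold of 1.2. With the sample number as a replicate block, 8 members were lower and 1 higher, 29 related genes were lower and 5 higher, and the differences of the mitofusin, protease and Mief pairs were -0.64, -0.071 and 0.46. The numbers pair no samples by the labels, and the deviations of same-numbered samples correlated between -0.13 and 0.098. The block changed no member's call. Scaling by library size alone moved the median log2 fold change of all genes to 0.10, against 0.023. The cause of these changes was not tested. Depth limits Oma1 most, with as few as 346 counts in a library.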
